A study of Mus musculus with 20 samples.

Results

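CD4 T cells without Il6ra, which encodes the ligand-binding chain of the IL-6 receptor, were compared in the colon of transfer recipients and in the Th17 culture they came from. All libraries labelled with this genotype in the transfer experiments were taken, 3 from the colon and 2 from before transfer, which made 5 of the 20 libraries of the series. Every library of both stages was mRNA of CD4 T cells from C57BL/6 mice of genotype Il6ra-/- Il17f/Thy1.1 (CD45.2). Il17f/Thy1.1 is a reporter that puts Thy1.1 on cells that have made IL-17F. The cells before transfer had spent 6 days with irradiated splenic antigen-presenting cells, anti-CD3 (2.5 µg/ml), anti-IFN-g and anti-IL-4 (10 µg/ml each), TGF-b (2.5 ng/ml) and hyper-IL-6 (20 ng/ml). Hyper-IL-6 is IL-6 fused to its soluble receptor and acts on cells with no receptor of their own. Sorted Thy1.1+ cells made the libraries before transfer. For the colon group, 200000 such cells and as many wild-type CD45.1 cells were given together to Rag1-/- mice, which lack their own T and B cells. Colon cells that were live, CD4+, TCRb+ and CD45.2+ were sorted 4 weeks later, as pools. The colon cells were not gated on the reporter, and they were taken 4 weeks after the culture with its cytokines and antibodies. Gate, culture treatment, tissue and time therefore differ together between the stages and cannot be told apart. Experiment 1 gave library 0 of each stage, and experiment 2 gave library 1 before transfer and colon libraries 1 and 2. The wild-type libraries of the same experiments (genotype Il17f/Thy1.1, 2 before transfer and 3 from the colon) entered the fit to share the estimate of the spread.

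Th17 cells are helper T cells that secrete IL-17A, IL-17F and IL-22. IL-6 binds its alpha chain and the shared chain gp130, the product of Il6st, and activates STAT3, which induces Il21 and the feedback inhibitor Socs3. In the colitis that follows transfer into lymphopenic mice, Th17 cells are known to acquire interferon-gamma and the Th1 factor T-bet, a path driven by IL-12 and IL-23. Cultured T cells divide quickly and use aerobic glycolysis, while T cells in the gut wall carry integrins and chemokine receptors that hold them there.

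Reads counted in genes ranged per library from 12718633 to 23745060, and mitochondrial genes took between 1.45% and 1.77% of them. The colon libraries resembled each other more than the cultures did: Pearson's r of log2 CPM across genes, which are not independent replicates, was 0.977, 0.979 and 0.988 for the colon pairs and 0.966 for the pair before transfer. The T cell marker list (Cd3, Cd4, T cell receptor constant genes and others) summed to between 6107.5 and 7459.3 CPM before transfer and between 7653.1 and 8241.7 CPM in the colon. Cd4 was at 1201 and 1929.5 CPM before transfer and 1840.1, 1742 and 1804 CPM in the colon, and Thy1 at 875 and 843 CPM before transfer and 1330.4, 1301 and 1349 CPM in the colon (0.63 ± 0.19, adjusted p = 0.031). Thy1 did not pass when any 1 of these 5 libraries or wild-type colon library 0 or 1 was left out, with the replicate number as a block or with no filter on low counts. The cultures were sorted on the Thy1.1 reporter and the colon cells were not, and the part of reporter reads in Thy1 was not tested. CPM are TMM-scaled counts relative to library size, a change is a log2 fold change of colon over before transfer ± SE, and a gene passed at an adjusted p under 0.05 (edgeR's quasi-likelihood test, Benjamini-Hochberg over all genes). Colon cells were pooled, and the labels do not tie libraries to single mice. The p-values therefore rest on library-to-library spread, which may be technical. In bulk RNA, fewer cells of a kind and less RNA per cell cannot be told apart.

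Colon cells had more RNA of interferon-gamma, cytotoxic granules, tissue integrins and interferon-response genes, and less of the IL-17 cytokines, glycolysis, sterol synthesis and mitosis. Of 14225 genes tested, 3836 passed (27.0%), 1962 higher (13.8%) and 1874 lower (13.2%) in the colon, and the median change of all genes was -0.0022. Counts of list members below are to be read beside these shares. Among the genes that passed, 1102 were at least 4-fold higher and 874 at least 4-fold lower, 3823 had groups that did not overlap, and 3829 differed in the same direction in both experiments. The same libraries entered the test that chose these genes. Non-overlap and shared direction among them were therefore largely set by that choice and are no separate replication. Groups did not overlap in 59.1% of all genes tested, with the colon higher in 31.3% and lower in 27.9%. Against a minimum of 2-fold, 1714 genes passed (12.0%), 938 higher (6.59%) and 776 lower (5.46%). Leaving out 1 culture or colon library gave between 2627 and 2959 genes, with 1211 higher ones without culture 0 and 1172 lower ones without colon library 2, and no gene that passed in both fits changed direction. In simulated counts with 100 genes changed 2-fold and 100 changed 4-fold, 11% and 66% of these were recovered. Far more genes passed in the real data, and the adjusted threshold depends on that share. The rates therefore do not give how many changes were missed here, and smaller changes may have been.

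**Figure D1:**
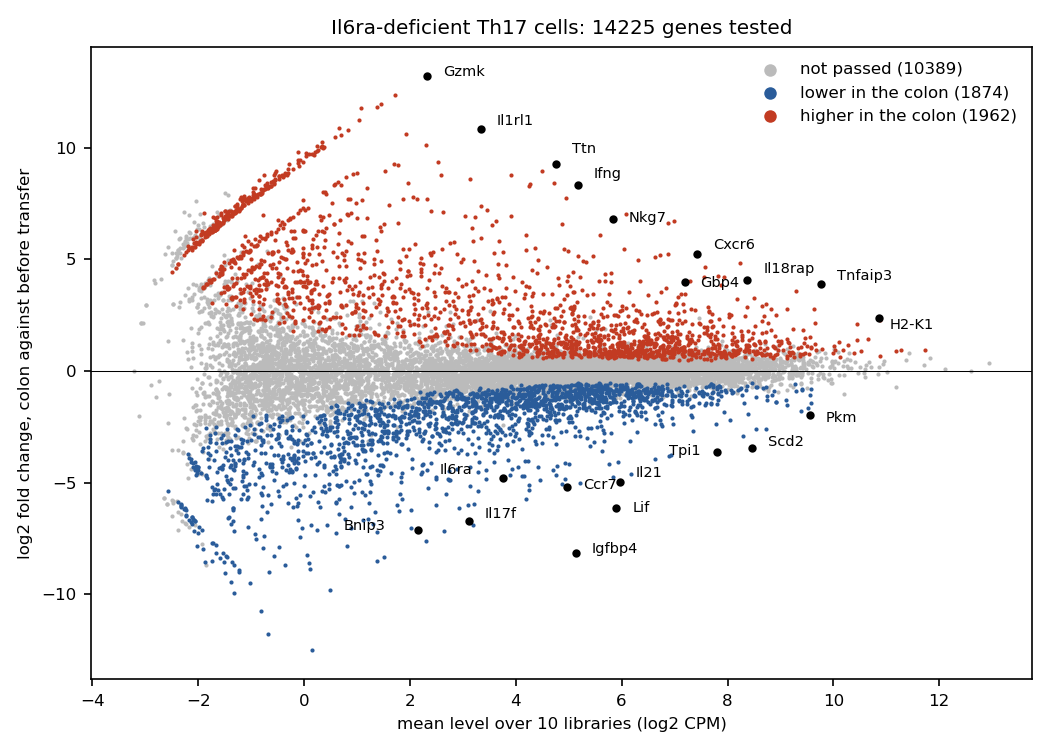
Each point is 1 of 14225 genes. Across is the mean level over the 5 Il6ra-deficient libraries (log2 CPM), although the axis title gives 10 libraries. Upward is the log2 fold change of colon over before transfer in Il6ra-deficient cells. Red genes (1962) passed as higher, blue genes (1874) as lower and grey genes did not pass. Gzmk, which had no count before transfer, is drawn at a fitted value that is no bound, and Igfbp4 is the named gene with the largest fall.

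The 12 largest rises of genes at a mean log2 CPM of at least 2 included cytotoxic, homing and cytokine genes. Gzmk, the gene of granzyme K, had no count in either culture and was at 61.02, 71.9 and 60.2 CPM in the colon, at least 1055-fold higher over a floor of 3 counts for both cultures together. Ifng, the gene of interferon-gamma, was at 1.79 and 0.513 CPM before transfer and 293, 418 and 422 CPM in the colon (8.34 ± 0.56, adjusted p = 6.43e-06), so its lowest colon library stood far above the higher culture. Itga1, the collagen-binding integrin chain of resident T cells, was at 0.3495 and 0.342 CPM before transfer and 181, 127 and 157 CPM in the colon (8.78 ± 0.35, adjusted p = 8.72e-07), and its libraries varied little within a stage. Il1rl1, which encodes ST2, the receptor of IL-33, had 4 reads in both cultures together and was at 120.4, 209 and 146 CPM in the colon (10.82 ± 0.78, adjusted p = 1.01e-05). Also among the 12 largest rises were Cxcr3, a receptor of interferon-induced chemokines, Gzma, Dtx1 of the Notch pathway, Sytl2, a protein of vesicle docking, and Ttn, which encodes titin. Cdh1, Reg3b and Dmbt1, which gut epithelium also expresses, were at 64.7, 47.2 and 46.2, 77.1, 52.5 and 44.7 and 161, 70.7 and 40.2 CPM in the colon and at most 0.256 CPM before transfer, and they stood next to epithelial markers that also rose (below).

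Among the 12 largest falls of genes at a mean log2 CPM of at least 2 was Igfbp4. Igfbp4, which encodes a binding protein of insulin-like growth factors and marks naive T cells, was at 627 and 1499 CPM before transfer and 3.53, 3.38 and 4.45 CPM in the colon (-8.13 ± 0.71, adjusted p = 2.78e-05). Serpinf1 (-7.61), the connexin gene Gja1 (-7.18), the proton pump subunit gene Atp6v0d2 (-7.03), the desaturase gene Scd1 (-6.91), Alpk2 (-6.14) and Nrn1 (-5.98) followed on the log2 scale, with Bnip3, Il17f, Lif and Ccl20 described below. Among the most abundant genes with at least a 4-fold fall, Il2ra, the high-affinity chain of the IL-2 receptor, was at 1174 and 999.6 CPM before transfer and 160.4, 195 and 192 CPM in the colon (-2.58 ± 0.29, adjusted p = 0.000132). Irf4, a factor induced by T cell receptor signals, was at 1239 and 893 CPM before transfer and 99.9, 171 and 161 CPM in the colon (-2.89 ± 0.38, adjusted p = 0.000341), and the lower culture stood far above the highest colon library. The signalling adaptor gene Malt1 (-2.61) and the deacetylase gene Hdac7 (-2.21) fell likewise. Among the most abundant genes with at least a 4-fold rise were the class I genes H2-K1, B2m and H2-D1, the ubiquitin editor gene Tnfaip3, the IL-18 receptor gene Il18r1, the G protein regulator gene Rgs1, Jun, and Furin, a protease that cleaves TGF-beta precursors (500.5 and 196 CPM before transfer and 1235, 1823 and 1562 CPM in the colon, 2.14 on the log2 scale), which did not pass without culture 1.

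**Figure D2:**
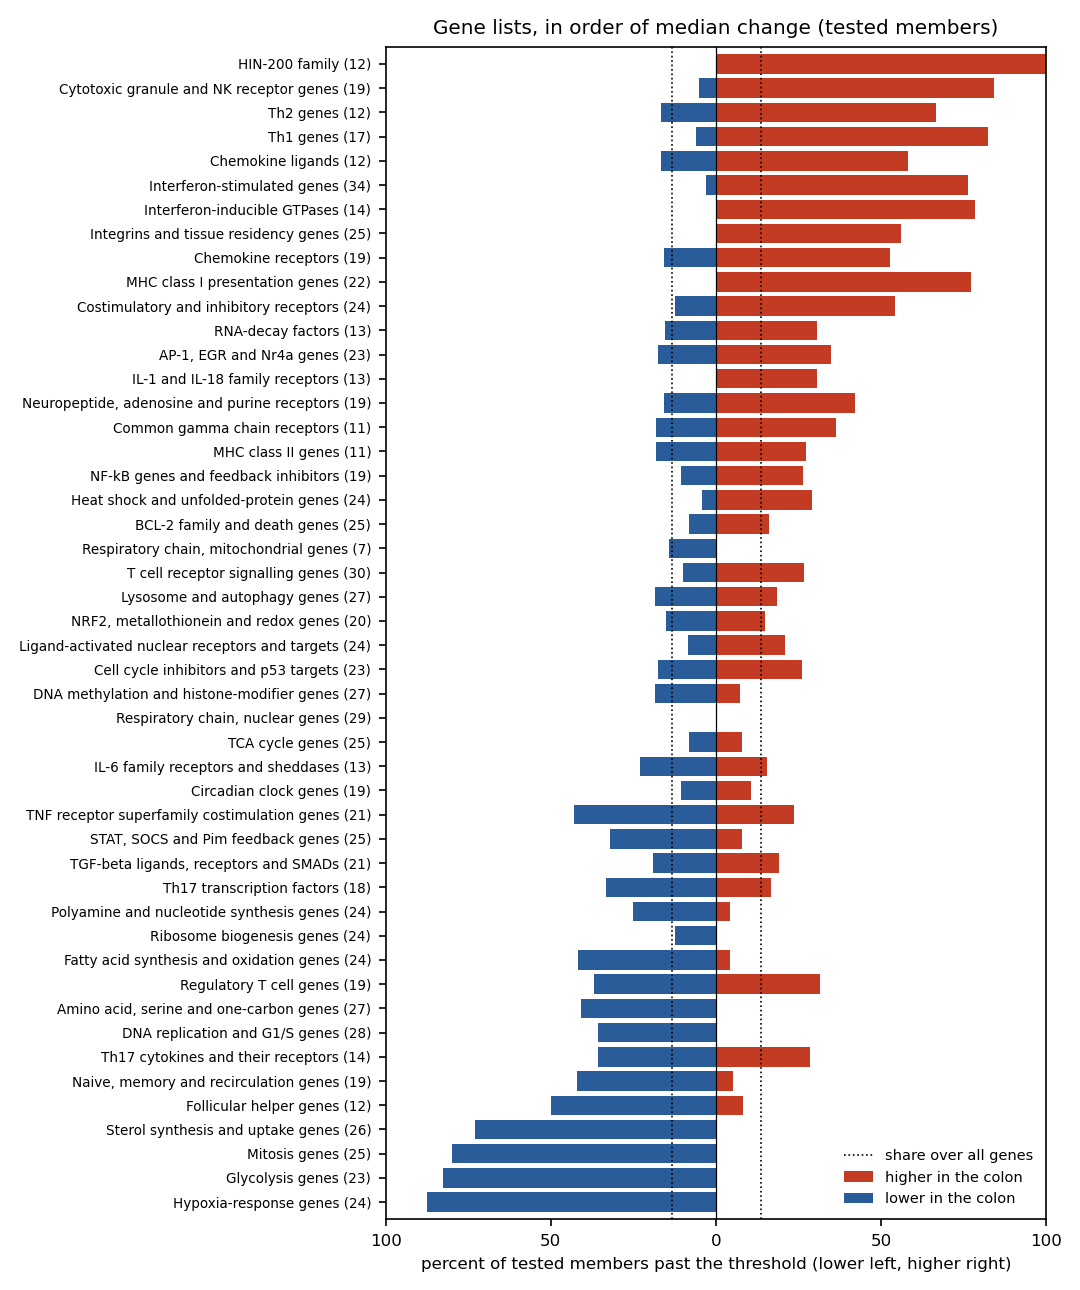
For 48 gene lists, the bars give the percent of tested members that passed as higher (right) or lower (left) in the colon, lists ordered by median change with the tested members in brackets. Dotted lines mark the shares over all genes, 13.8% higher and 13.2% lower, and the bars run from 12 of 12 higher HIN-200 genes to 21 of 24 lower hypoxia-response genes.

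The Th17 cytokine genes split. Of 14 tested, 5 fell and 4 rose, with a median change of -0.99. Il17a was at 361 and 68.4 CPM before transfer and 20.2, 3.79 and 12.9 CPM in the colon (-4.11 ± 0.84, adjusted p = 0.0049). The cultures differed widely, both lay above every colon library, and Il17a did not pass without culture 0. Il17f, which the cells had been sorted on through its reporter before transfer, was at 247 and 70.7 CPM before transfer and 2.48, 0.659 and 1.3005 CPM in the colon (-6.69 ± 0.79, adjusted p = 0.000173), so the gate used this gene on one side of the comparison. Il21, an autocrine growth factor of Th17 and follicular helper cells, was at 629.9 and 366 CPM before transfer and 14.97, 18.7 and 14.9 CPM in the colon (-4.95 ± 0.401, adjusted p = 1.94e-05). Lif (965 and 570.5 CPM before transfer and 10.9, 12.5 and 9.86 CPM in the colon, -6.11 on the log2 scale) and Ccl20, the chemokine that binds CCR6 (229.8 and 22.8 CPM before transfer and 1.91, 1.81 and 2.19 CPM in the colon, -5.997), also fell.

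The 4 cytokine genes that rose are made by effector T cells. Il22, whose product acts on epithelium, was at 0.816 and 0.342 CPM before transfer and 13.1, 9.798 and 16.97 CPM in the colon (4.49 ± 0.58, adjusted p = 0.000298). Csf2, the gene of GM-CSF, was at 1.94 and 4.27 CPM before transfer and 14.4, 8.97 and 13.8 CPM in the colon (1.997 ± 0.498, adjusted p = 0.0132), which did not pass without culture 0, and Tnf at 57.7 and 39.3 CPM before transfer and 151, 139 and 123 CPM in the colon (1.51 ± 0.22, adjusted p = 0.000633). Il10, an anti-inflammatory cytokine gene, was at 0.583 and 0.726 CPM before transfer and 22.3, 7.57 and 8.42 CPM in the colon (4.28 ± 0.71, adjusted p = 0.00149), with colon library 0 above the other colon libraries. The receptors that respond to IL-23 and IL-1 did not pass: Il23r was at 10.5 and 10.7 CPM before transfer and 7.45, 2.72 and 4.24 CPM in the colon (-1.13 ± 0.49, adjusted p = 0.113) and Il1r1 at 146 and 78.3 CPM before transfer and 75.99, 51.3 and 59.3 CPM in the colon (-0.85 ± 0.45, adjusted p = 0.189). Ccr6, the chemokine receptor of Th17 cells, was at 39.3 and 30.7 CPM before transfer and 26.2, 8.07 and 11.5 CPM in the colon (-1.19 ± 0.74, adjusted p = 0.268), with colon library 0 close to the cultures.

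Among 18 Th17 transcription factor genes, 6 fell and 3 rose. Among those that fell were Irf4, described above, Fosl2 (-1.83), the vitamin D receptor gene Vdr (-2.37) and the membrane-associated Basp1 (-4.82). Jun (2.79), the inhibitor-of-NF-kB family gene Nfkbiz (1.72) and the aryl hydrocarbon receptor gene Ahr (1.13) rose. Rora, a nuclear receptor gene, was at 313 and 201 CPM before transfer and 537, 659 and 572 CPM in the colon (1.196 ± 0.501, adjusted p = 0.104) and did not pass, although its groups did not overlap. Maf (807 and 536 CPM before transfer and 542, 396 and 394 CPM in the colon) and Stat3 (482 and 633 CPM before transfer and 423, 426 and 407 CPM in the colon) did not pass either, with adjusted p = 0.196 and 0.186. The rises numbered 5 without either wild-type culture, with no filter on low counts, in the compared groups alone and in DESeq2. Ahr did not pass when any 1 of the 5 deficient libraries or wild-type colon library 1 or 2 was left out, Vdr without culture 1 or colon library 1 or 2, and Fosl2 without culture 1.

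**Figure D3:**
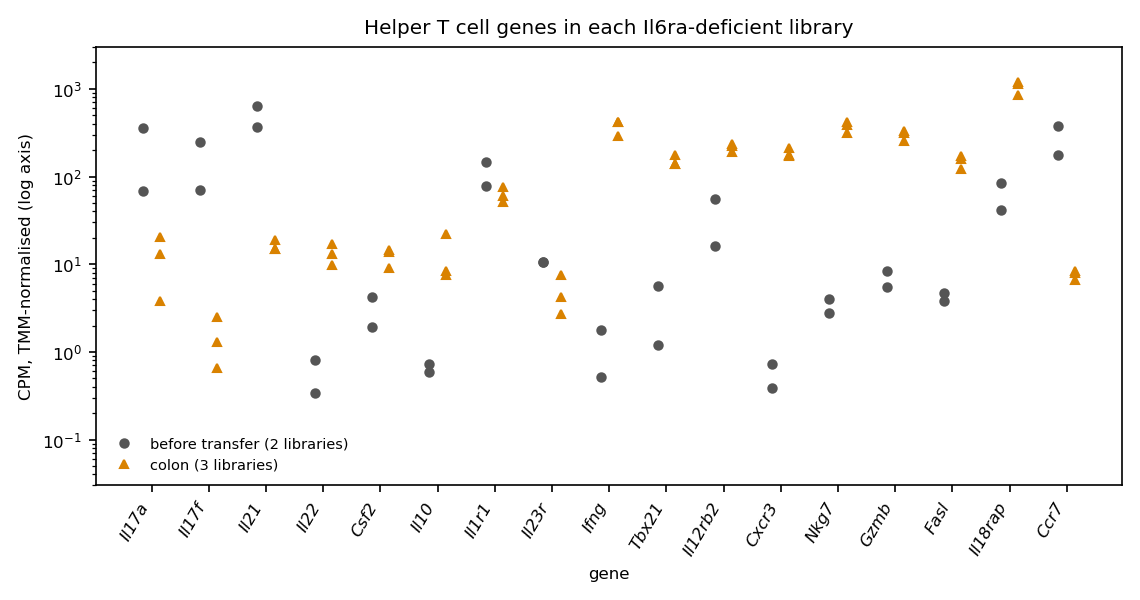
CPM on a log axis for 17 helper T cell genes in each Il6ra-deficient library, circles for the 2 cultures before transfer and triangles for the 3 colon libraries. Il17a, Il17f, Il21 and Ccr7 lie lower in every colon library, Ifng, Tbx21, Cxcr3 and the cytotoxic genes higher, while Il1r1 and Il23r did not pass.

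In the IL-6 family list, 3 of 13 tested genes fell and 2 rose. No label says which exons of Il6ra are missing, so its reads are no check of the genotype. Reads of Il6ra (GRCm38 chr3:89864059-89913196) were at 80.6 and 123 CPM before transfer and 4.85, 3.46 and 2.53 CPM in the colon (-4.81 ± 0.41, adjusted p = 2.48e-05). Il6st, which encodes gp130, was at 147 and 163 CPM before transfer and 59.1, 61.9 and 40.1 CPM in the colon (-1.53 ± 0.28, adjusted p = 0.0027). Both were lower in every colon library, Il6ra by the larger factor. Adam17, a protease that sheds the IL-6 receptor, was at 103 and 78.99 CPM before transfer and 151, 173 and 156 CPM in the colon (0.81 ± 0.26, adjusted p = 0.0376), and the aminopeptidase gene Erap1 rose by 0.92 on the log2 scale. The sheddase gene Adam10 did not pass (224 and 180.2 CPM before transfer and 195, 193 and 184 CPM in the colon). The rises of the list were 0 without either culture or without colon library 0 or 1, and 1 without colon library 2, without wild-type colon library 1 or 2 and with the replicate number as a block. Adam17 did not pass when any 1 of the 5 deficient libraries or wild-type colon library 1 or 2 was left out or with that block, and Erap1 did not without either culture or colon library 0 or 1. The falls were 5 without either wild-type culture, with no filter on low counts and in the compared groups alone.

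Feedback and kinase genes downstream of cytokine receptors fell more often than they rose, 8 against 2 of 25. Socs3 was at 218 and 569 CPM before transfer and 107, 171 and 161 CPM in the colon (-1.43 ± 0.48, adjusted p = 0.0499), just inside the threshold, and the 2 cultures differed more from each other than the colon libraries did. Bcl3 was at 145 and 215 CPM before transfer and 85.1, 68.9 and 66.3 CPM in the colon (-1.29 ± 0.28, adjusted p = 0.00614). Pim2 (-1.64), Stat5a (-1.53) and Socs2 (-1.41), genes known to respond to or carry IL-2 family signals, also fell, while Tyk2, a kinase of cytokine receptors, rose by 1.24. Cish, another STAT5-induced inhibitor, was at 411 and 457 CPM before transfer and 432, 424 and 459 CPM in the colon (change 0.01, adjusted p = 0.966). Without culture 1, 4 of the 25 were lower and Bcl3 did not pass. Socs3 did not pass without culture 1 or without any 1 colon library of either genotype.

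Th1 genes moved together upward: 14 of 17 rose and 1 fell, with a median of 2.72 and 14 or 15 higher in every other fit except the test against 2-fold, which gave 11. The cultures had received anti-IFN-g, whose part was not tested. Tbx21, the gene of T-bet, was at 5.59 and 1.196 CPM before transfer and 177, 139 and 138 CPM in the colon (5.47 ± 0.63, adjusted p = 0.000154). Cxcr3 was at 0.388 and 0.726 CPM before transfer and 209, 175 and 173 CPM in the colon (8.37 ± 0.56, adjusted p = 6.47e-06) and Cxcr6, the receptor of CXCL16, at 17.3 and 21.7 CPM before transfer and 789, 648 and 787 CPM in the colon (5.25 ± 0.302, adjusted p = 4.74e-06). All colon values of these genes exceeded both cultures severalfold. Il12rb2, which encodes a chain of the receptor for IL-12, was at 16.2 and 55.2 CPM before transfer and 224, 233 and 189 CPM in the colon (2.59 ± 0.45, adjusted p = 0.00193). Eomes, a factor related to T-bet, was at 0.738 and 0.9398 CPM before transfer and 24.3, 21.5 and 16.4 CPM in the colon, and Il18rap, the accessory chain of the IL-18 receptor, at 41.3 and 83.6 CPM before transfer and 859, 1196 and 1131 CPM in the colon. The 1 gene that fell was Ifngr2, the signalling chain of the interferon-gamma receptor itself, at 65.9 and 84.5 CPM before transfer and 5.55, 5.105 and 3.696 CPM in the colon (-3.97 ± 0.34, adjusted p = 2.71e-05). Stat4, which carries the IL-12 signal, was at 126 and 248 CPM before transfer and 289.7, 255 and 259 CPM in the colon and did not pass (0.52 ± 0.302, adjusted p = 0.238).

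Cytotoxic granule and NK receptor genes rose in 16 of 19 and fell in 1, with a median of 3.57. Nkg7, a granule membrane protein, was at 3.96 and 2.78 CPM before transfer and 392, 315 and 417 CPM in the colon (6.79 ± 0.52, adjusted p = 1.34e-05). Granzyme B, from Gzmb, was at 8.31 and 5.43 CPM before transfer and 333, 257 and 313 CPM in the colon (5.45 ± 0.45, adjusted p = 2.02e-05) and Fasl, the ligand of the death receptor Fas, at 4.66 and 3.84 CPM before transfer and 121, 159.6 and 169.7 CPM in the colon (5.14 ± 0.395, adjusted p = 1.44e-05). No colon library came near a culture in these 3 genes. Gzma varied more, at 83.6, 137 and 387 CPM in the colon against 0.738 and 0.555 before, with colon library 2 the highest. The NK receptor gene Klrc1 rose by 5.297 on the log2 scale. The 1 that fell was Cst7, an inhibitor of the proteases that activate granzymes (93.6 and 153 CPM before transfer and 54.4, 51.3 and 61.7 CPM in the colon, -1.15), which did not pass without culture 1 or any 1 colon library. Markers of CD8, NK and gamma-delta T cells rose beside them in 8 of 11 tested. Their summed level went from between 39.1 and 41.5 CPM to between 413.7 and 493.9 CPM, of which the gamma chain constant genes Tcrg-C2 (232, 176 and 208 CPM) and Tcrg-C1 (82.2, 75.9 and 99.5 CPM) made most. The Tcrg-C genes are near copies, which leaves the level of each uncertain. Cd8a was at 14.3 and 19.3 CPM before transfer and 26.2, 53.2 and 66.7 CPM in the colon (1.54 ± 0.39, adjusted p = 0.0148) and Cd8b1 at 6.097 and 12.6 CPM before transfer and 1.56, 15.4 and 9.17 CPM in the colon, which did not pass. Cd8a did not pass without culture 0 or colon library 2. The colon sort took CD4+ TCRb+ cells. The part of CD8, NK and gamma-delta T cells in the rise of cytotoxic genes was not tested.

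Markers of other helper fates changed in both directions. Of 12 Th2 genes 8 rose and 2 fell, against cultures that had received anti-IL-4, whose part was not tested. Beside Il1rl1, Gata3, the Th2 regulator, was at 25.7 and 49.5 CPM before transfer and 151, 123 and 95.5 CPM in the colon (1.71 ± 0.36, adjusted p = 0.00591). The IL-9 receptor gene Il9r (4.73), Epas1 (4.19), the growth factor gene Areg (3.06) and the chemokine receptor gene Ccr8 (2.43) rose, while the IL-4 receptor gene Il4ra (227 and 302 CPM before transfer and 98.2, 99.1 and 113 CPM in the colon, -1.35) and Ccr4 (-1.29) fell. Without culture 0, 5 of the 12 were higher and Gata3 did not pass.

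Regulatory T cell genes split, 6 higher and 7 lower of 19. Foxp3 was at 15.7 and 2.22 CPM before transfer and 88.9, 35.7 and 43.7 CPM in the colon (2.65 ± 0.69, adjusted p = 0.0158), with colon library 0 highest and culture 1 lowest. Itgae, the integrin chain CD103 that binds E-cadherin, was at 16.3 and 8.33 CPM before transfer and 406, 296 and 578 CPM in the colon (5.11 ± 0.54, adjusted p = 8.23e-05). Ikzf2, which encodes Helios, rose by 4.68 and Fgl2, a secreted suppressor, by 3.43. Lrrc32, which anchors latent TGF-beta at the surface, was at 23.1 and 169.8 CPM before transfer and 10.1, 7.904 and 12.4 CPM in the colon (-3.25 ± 0.83, adjusted p = 0.0144), and Il2ra fell too. Without culture 1 the count of falls was 2, and without colon library 0, 1 or 2 it was 4, 3 and 3. Lrrc32 did not pass without culture 1 or colon library 1.

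Follicular helper genes fell in 6 of 12, and 1, the costimulator gene Icos, rose (222 and 195 CPM before transfer and 480.5, 836 and 806 CPM in the colon). Cd200 was at 208 and 172 CPM before transfer and 9.59, 5.43 and 7.53 CPM in the colon (-4.65 ± 0.27, adjusted p = 4.74e-06). Bcl6, the regulator of follicular helper cells, was at 78.9 and 77.02 CPM before transfer and 33.5, 35.1 and 31.96 CPM in the colon (-1.22 ± 0.17, adjusted p = 0.000566). Btla (-2.08) and Tox2 (-1.37) fell as well, and in each of these genes both cultures lay above every colon library.

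Genes of naive and recirculating T cells fell in 8 of 19 and rose in 1. Ccr7, which guides T cells to lymph nodes, was at 177 and 381 CPM before transfer and 8.32, 6.59 and 8.01 CPM in the colon (-5.19 ± 0.41, adjusted p = 1.8e-05). Bach2, a repressor that holds T cells in a resting state, was at 315 and 295 CPM before transfer and 17.4, 17.9 and 15.5 CPM in the colon (-4.17 ± 0.27, adjusted p = 5.82e-06). Klf3 rose, from 12.9 and 13.1 to 65.3, 71.7 and 57.7 CPM (2.32 ± 0.26, adjusted p = 0.000147). S1pr1, the receptor for leaving lymphoid tissue, was at 130.1 and 279.9 CPM before transfer and 242, 204 and 216 CPM in the colon, with culture and colon values that overlapped and a change of 0.104 ± 0.41, and Foxo1 at 256 and 236 CPM before transfer and 273, 242 and 236 CPM in the colon. The rises of this list were 3 with the replicate number as a block, in DESeq2 and with no filter on low counts, and 2 without culture 1 or either wild-type culture.

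In the integrin and residency list 14 of 25 genes rose and none fell, or 1 without either wild-type culture. Zfp683, the gene of the residency factor Hobit, was at 0.194 and 1.07 CPM before transfer and 40.7, 15.8 and 19.4 CPM in the colon (5.33 ± 0.72, adjusted p = 0.000413), and Prdm1, the gene of Blimp-1, at 3.88 and 7.65 CPM before transfer and 71.3, 89.4 and 90.6 CPM in the colon (3.86 ± 0.35, adjusted p = 3.25e-05). Itga2 (3.77) and Rgs1 (169 and 122 CPM before transfer and 1052, 1831 and 2399 CPM in the colon, 3.596) rose as well. The fibronectin receptor chain gene Itgb1 was at 257 and 173 CPM before transfer and 405, 185 and 128 CPM in the colon, so that colon library 0 stood apart from the other colon libraries and the groups overlapped.

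Chemokine receptor genes rose in 10 of 19 and fell in 3. Ccr2, the receptor of monocyte chemokines, was at 18.7 and 51.3 CPM before transfer and 927, 494 and 518 CPM in the colon (4.21 ± 0.49, adjusted p = 0.000172). It was higher in every colon library. Cxcr4 was at 112 and 156 CPM before transfer and 28.3, 82.1 and 104 CPM in the colon (adjusted p = 0.256), and colon library 0 was again the one apart. Of 12 chemokine ligand genes 7 rose and 2 fell. Ccl5 was at 1.86 and 5.85 CPM before transfer and 533, 355 and 632 CPM in the colon (7.04 ± 0.91, adjusted p = 0.000305) and Xcl1 at 2.49 and 0.0427 CPM before transfer and 14.3, 17.7 and 48.3 CPM in the colon. Ccl4 rose by 1.36 and Cxcl10, the interferon-induced ligand of CXCR3, by 2.95. Cxcl2, at 1.13 and 0.384 CPM before transfer and 3.99, 48.5 and 32.9 CPM in the colon, was high in the colon libraries in which myeloid markers were high, colon 1 and 2. Without culture 1, 4 of the 12 ligand genes were higher, without culture 0 1 was lower, and Cxcl2 did not pass without either. Ccl4 did not pass without culture 1, colon library 0 or 2 or wild-type colon library 1 or 2, with the replicate number as a block or in the compared groups alone. With that block 5 receptor genes were lower.

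Receptors of the IL-1 family rose in 4 of 13, and the 4 lie in 1 cluster on chromosome 1. Il18r1 (chr1:40465552-40500854) was at 136 and 396 CPM before transfer and 1478, 2031 and 1949 CPM in the colon (2.77 ± 0.43, adjusted p = 0.00102). Il1rl1 (chr1:40429570-40465415), Il18rap (chr1:40515362-40551705) and the decoy receptor gene Il1r2 (chr1:40074079-40125231, 1.95 on the log2 scale) rose with it, while Il1r1 (chr1:40225080-40317257) and Il1rl2 (chr1:40324610-40367562, 0.71) between them did not pass. Of 11 genes of the common gamma chain family 4 rose and 2 fell: Il15ra rose by 1.5, and Il21r was at 171 and 275 CPM before transfer and 222, 235 and 252 CPM in the colon with groups that overlapped. The stricter filter on low counts left 2 rises in this family. Il1r2 did not pass without either culture or colon library 1 or 2, and 2 genes of the IL-1 family list were lower without either wild-type culture.

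TGF-beta pathway genes changed in both directions, 4 higher and 4 lower of 21 (19.0% each, against 13.8% and 13.2% of all genes). Tgfbr2, the ligand-binding receptor, was at 219.9 and 244 CPM before transfer and 555, 547 and 553 CPM in the colon (1.25 ± 0.17, adjusted p = 0.000477). Smad7, an inhibitor induced by the pathway, was at 68.7 and 81.98 CPM before transfer and 149, 166 and 171 CPM in the colon (1.11 ± 0.2, adjusted p = 0.00246), and Smad3 rose by 0.97. Each of these had narrow groups that did not overlap. Tgfb3, at 27.9 and 135 CPM before transfer and 24.9, 25.8 and 26.97 CPM in the colon, fell by 1.65 on the log2 scale from cultures that differed several-fold. Without culture 0, 2 of the 21 were higher, and without either wild-type culture 7 were lower. Smad3 did not pass without culture 0. Tgfb3 did not pass with the replicate number as a block, in the compared groups alone, or without culture 1 or any 1 colon library.

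In the TNF receptor superfamily 9 of 21 genes fell and 5 rose. Tnfsf10, the gene of the death ligand TRAIL, was at 26.6 and 22.6 CPM before transfer and 310.0, 268 and 281 CPM in the colon (3.54 ± 0.37, adjusted p = 8.23e-05), and Tnfrsf1b, the second TNF receptor, at 76.004 and 72.2 CPM before transfer and 316, 313 and 324 CPM in the colon (2.101 ± 0.23, adjusted p = 0.000128). The activation-induced Tnfrsf9, which encodes 4-1BB, was at 150.2 and 209 CPM before transfer and 53.3, 45.6 and 49.97 CPM in the colon (-1.86 ± 0.24, adjusted p = 0.00032). Cd27 (-1.95) and Tnfrsf8 (-2.07) fell too. Costimulatory and inhibitory receptors rose in 13 of 24 and fell in 3. Havcr2, the gene of the inhibitory receptor TIM-3, was at 0.194 and 0.128 CPM before transfer and 37.97, 34.7 and 33.4 CPM in the colon (7.71 ± 0.55, adjusted p = 9.93e-06) and Cd226, an activating receptor of the same ligands as TIGIT, at 3.57 and 3.97 CPM before transfer and 312, 214 and 257 CPM in the colon (6.11 ± 0.401, adjusted p = 5.82e-06). Cd160 (6.11) and Cd7 (3.45) rose as well. Lag3, another inhibitory receptor gene, moved the other way, 602 and 569.8 CPM before transfer and 42.8, 36.1 and 51.3 CPM in the colon (-3.75 ± 0.32, adjusted p = 2.6e-05), and Pdcd1, the gene of PD-1, was at 73.6 and 31.01 CPM before transfer and 47.9, 50.6 and 45.9 CPM in the colon and did not pass. Without wild-type culture 1, 5 costimulatory and inhibitory receptor genes were lower.

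Among T cell receptor signalling genes 8 of 30 rose and 3 fell, and without culture 0, 3 rose. Ubash3a, a negative regulator, was at 47.1 and 69.03 CPM before transfer and 250.4, 289 and 278 CPM in the colon (2.23 ± 0.24, adjusted p = 0.000105), while its relative Ubash3b went from 77.9 and 56.7 to 24.04, 13.8 and 15.1 CPM (-1.93 ± 0.38, adjusted p = 0.00409). Fyn (1.36) and Lat (1.32), a kinase and an adaptor near the receptor, rose. Malt1, which links the receptor to NF-kB, was at 1263 and 1259.8 CPM before transfer and 216, 205 and 197 CPM in the colon (-2.61 ± 0.36, adjusted p = 0.00045). Lat did not pass without culture 1, and without wild-type culture 1 the falls were 5.

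In the list of AP-1 and other immediate-early genes, Fosb was at 11.2 and 5.77 CPM before transfer and 389, 1225 and 1050.4 CPM in the colon (6.705 ± 0.67, adjusted p = 6.16e-05), Fos at 37.2 and 60.7 CPM before transfer and 524, 816 and 756 CPM in the colon (3.84 ± 0.35, adjusted p = 3.81e-05) and the phosphatase gene Dusp1 at 30.02 and 42.5 CPM before transfer and 225, 488 and 471 CPM in the colon (3.44 ± 0.48, adjusted p = 0.000522). In all 3, colon library 0 was the lowest of the colon and still above both cultures. Of 23 genes of this list 8 rose and 4 fell, with Myc at 221 and 113 CPM before transfer and 27.9, 54.2 and 44.7 CPM in the colon (-1.98 ± 0.33, adjusted p = 0.00147) and Fosl2 among the falls. Nr4a1, another gene induced by the T cell receptor, was at 262 and 175 CPM before transfer and 162, 245 and 278 CPM in the colon and did not pass. These genes are known to respond to tissue handling, whose part was not tested. The part of handling in the NF-kB, RNA-decay, residency and heat shock lists was not tested either.

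NF-kB genes rose in 5 of 19 and fell in 2. Tnfaip3, whose product A20 shuts off NF-kB, was at 154 and 219 CPM before transfer and 1210.3, 3417 and 3677 CPM in the colon (3.89 ± 0.61, adjusted p = 0.00107), with colon library 0 far below the other colon libraries. Nfkbiz was at 98.2 and 94.6 CPM before transfer and 216, 393 and 342 CPM in the colon (1.72 ± 0.32, adjusted p = 0.003) and Nfkbid rose by 1.28. Subunit gene Rela was at 146 and 140.2 CPM before transfer and 129, 139 and 133 CPM in the colon (adjusted p = 0.763). Of 13 RNA-decay factors 4 rose and 2 fell. Zc3h12a, the gene of Regnase-1, which degrades cytokine mRNA, was at 57.9 and 62.1 CPM before transfer and 79.7, 137 and 122 CPM in the colon (0.91 ± 0.25, adjusted p = 0.0185), and its relative Zc3h12d at 323 and 429 CPM before transfer and 83.7, 103 and 88.3 CPM in the colon (-2.04 ± 0.19, adjusted p = 3.58e-05). The antiproliferative Btg1 and Btg2 rose by 1.26 and 1.99. Without culture 0 the rises were 3 for NF-kB and 1 for RNA decay, and 5 for the AP-1 list. Without culture 1, 2 genes of the AP-1 list were lower, and without either wild-type culture 7 RNA-decay genes were higher. Culture 1 also bore on the NF-kB falls, 1 without it, and on Nfkbid, which did not pass. Btg1 did not pass without culture 0, nor Zc3h12a without either culture or colon library 1 or 2.

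Most glycolysis and hypoxia-response genes fell. Of 23 glycolysis genes 19 fell and none rose, with a median of -1.94, and between 17 and 20 fell in every other fit except the test against 2-fold, which gave 14. Tpi1, triosephosphate isomerase, was at 1150.4 and 890.0 CPM before transfer and 71.02, 92.96 and 81.4 CPM in the colon (-3.64 ± 0.22, adjusted p = 5.46e-06). Pkm, pyruvate kinase, was at 1784 and 1615 CPM before transfer and 422, 442 and 447 CPM in the colon (-1.96 ± 0.202, adjusted p = 7.43e-05), and Ldha, lactate dehydrogenase A, at 1714 and 1222 CPM before transfer and 477, 468 and 467 CPM in the colon (-1.64 ± 0.204, adjusted p = 0.000245). The lactate exporter gene Slc16a3 was at 359 and 314 CPM before transfer and 16.9, 22.9 and 19.5 CPM in the colon (-4.09 ± 0.26, adjusted p = 5.46e-06) and the hexokinase gene Hk2 at 301 and 299 CPM before transfer and 50.4, 59.6 and 54.3 CPM in the colon (-2.45 ± 0.27, adjusted p = 0.000116). In each of these 5 genes the colon libraries lay within a narrow band far under both cultures. Pgk1 (23.1 and 32.3 CPM before transfer and 3.87, 3.87 and 5.27 CPM in the colon) has pseudogene copies that can take unique reads away, so its level is uncertain, and Gapdh, with many copies, was at 14.2 and 24.4 CPM before transfer and 17.3, 35.7 and 31.4 CPM in the colon and is not interpretable as a level. Eno3, the muscle enolase gene, was at 12.7 and 23.7 CPM before transfer and 12.7, 11.4 and 14.5 CPM in the colon and did not pass.

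Of 24 hypoxia-response genes 21 fell and none rose, with a median of -2.37. Bnip3, a receptor for mitophagy, was at 61.1 and 98.9 CPM before transfer and 0.693, 0.494 and 0.479 CPM in the colon (-7.13 ± 0.32, adjusted p = 1.23e-06). Vegfa, the vascular growth factor gene, was at 108 and 350.3 CPM before transfer and 1.68, 7.66 and 3.83 CPM in the colon (-5.73 ± 0.67, adjusted p = 0.000167), and culture 1 was well above culture 0 in Vegfa and in Ndrg1 (109 and 554 CPM before transfer and 10.7, 9.72 and 10.7 CPM in the colon). Egln3, an oxygen-sensing prolyl hydroxylase that is itself induced in hypoxia, was at 403 and 633 CPM before transfer and 25.8, 39.5 and 36.7 CPM in the colon (-3.93 ± 0.25, adjusted p = 5.72e-06). Bnip3l, the smallest of the 21, fell by 0.803 on the log2 scale and did not pass without culture 1 or colon library 1 or with the replicate number as a block, and Bhlhe40 was at 1223 and 1224 CPM before transfer and 764, 1594 and 1663 CPM in the colon, with both cultures inside the colon range.

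HIF-1, the factor that drives many of these genes, binds sites that contain ACGTG. In RefSeq promoters (GRCm38.p6, 250 bases before to 50 after the annotated start), ACGTG on either strand was present in 14 of 22 glycolysis genes with an entry (63.6%) and 14 of 18 hypoxia-response genes (77.8%), against 21.8% of 27025 genes with a promoter and 28.8% of the tested genes among them. The windows below show the match nearest the start with up to 30 bases on either side, all upstream of the start. They are those of the genes with the largest falls among members that passed, had a mean log2 CPM of at least 2 and held the letters upstream. Vegfa also met this rule and is counted among the 14 hypoxia-response genes, but its entry begins inside the gene and is not shown. Capitals mark ACGTG, or CACGT where it is read from the other strand.
Slc16a3, chr11:120949023-120949066, plus strand: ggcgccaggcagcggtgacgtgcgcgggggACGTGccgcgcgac
Pgk1, chrX:106186939-106187003, plus strand: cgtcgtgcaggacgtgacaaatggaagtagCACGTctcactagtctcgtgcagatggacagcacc
Hk2, chr6:82774472-82774536, minus strand: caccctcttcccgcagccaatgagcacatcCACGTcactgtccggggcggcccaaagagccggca
Bnip3, chr7:138909579-138909643, minus strand: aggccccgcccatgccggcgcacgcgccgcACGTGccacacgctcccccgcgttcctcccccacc
Egln3, chr12:54204069-54204124, minus strand: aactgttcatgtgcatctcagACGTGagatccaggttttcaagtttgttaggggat
The motif stands 14 bases before the start in Slc16a3 and 229 in Egln3, counted from its first letter, so its place varied widely among these genes. A match is a description of letters and not a measured binding site.

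Sterol synthesis genes fell in 19 of 26 and none rose, with a median of -1.28. Cyp51, a demethylase of the pathway, was at 384 and 167 CPM before transfer and 74.4, 56.6 and 48.9 CPM in the colon (-2.197 ± 0.43, adjusted p = 0.00369). Hmgcs1, HMG-CoA synthase, was at 409 and 314 CPM before transfer and 107, 90.2 and 82.5 CPM in the colon (-1.95 ± 0.296, adjusted p = 0.000834), and Insig1, a sensor of sterol supply, at 168 and 138 CPM before transfer and 31.96, 42.4 and 38.1 CPM in the colon (-2.03 ± 0.21, adjusted p = 7.24e-05). Culture 0 was the higher culture in all 3, and without it 11 of the 26 were lower. In DESeq2 1 gene of the list rose. The letters TCACNCCAC, a form of the sterol regulatory element, were present in 1 of 17 promoters of the list (5.88%), that of Hmgcs1, against 1.44% of all, and the same letters with an A before them in none of the 17 against 0.270% of all. Abcg1, a cholesterol exporter gene, was at 27.5 and 51.4 CPM before transfer and 62.5, 50.97 and 47.6 CPM in the colon and did not pass.

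Fatty acid genes fell in 10 of 24, and the 1 that rose, Hadhb (0.93), belongs to oxidation and did not pass without culture 0 or colon library 0. Scd1, a desaturase gene, was at 176 and 136 CPM before transfer and 1.502, 1.3997 and 0.958 CPM in the colon (-6.91 ± 0.696, adjusted p = 6.39e-05), its relative Scd2 at 1499 and 1478 CPM before transfer and 182, 114 and 117 CPM in the colon (-3.43 ± 0.45, adjusted p = 0.00033), and Fasn, fatty acid synthase, at 632 and 417 CPM before transfer and 158, 155 and 135 CPM in the colon (-1.81 ± 0.26, adjusted p = 0.000648). Acsl3 (-4.87), Fads2 (-4.85) and Elovl6 (-1.83) fell with them. The mitochondrial oxidation gene Acadl was at 115 and 172 CPM before transfer and 133, 146 and 163 CPM in the colon.

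Of 29 nuclear genes of the respiratory chain 0 passed in edgeR, 0 had an unadjusted p under 0.05 and 0 passed in DESeq2 or any other alternative, their median was -0.03, and 2 of them had groups that did not overlap. The summed level of the 29 was 4163.4 and 2817.4 CPM before transfer and 3308.7, 3286.8 and 3597.1 CPM in the colon. The cultures thus lay on either side of the colon libraries. The median was 0.26 without culture 0 and -0.26 without culture 1. Uqcrc2 of complex III, named for a change near 0, was at 183 and 173 CPM before transfer and 170.1, 175 and 187 CPM in the colon (change -0.01 ± 0.16). Of the 13 mitochondrial genes of the chain 7 were tested, and mt-Nd6 fell (64.2 and 30.3 CPM before transfer and 25.7, 18.1 and 16.02 CPM in the colon, -1.24) but did not pass without culture 0 or colon library 1 or 2, while mt-Co1 was at 5609 and 6719 CPM before transfer and 6026, 6773 and 5877 CPM in the colon. The other 6 had no counted reads in any of the 5 libraries. TCA cycle genes numbered 2 higher and 2 lower of 25 (8% each, under the 13.8% and 13.2% of all genes). Pcx, pyruvate carboxylase, fell from 56.7 and 73.6 to 4.16, 3.79 and 3.49 CPM (-4.09 ± 0.28, adjusted p = 6.57e-06). The TCA rises were 0 without culture 1, any 1 colon library or wild-type colon library 1 and with the replicate number as a block. The falls were 1 without any 1 colon library or wild-type colon library 1 and with that block.

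Amino acid and one-carbon genes fell in 11 of 27 and none rose. Mthfd1l, a mitochondrial folate enzyme, was at 156 and 141 CPM before transfer and 31.6, 43.3 and 44.2 CPM in the colon (-1.91 ± 0.24, adjusted p = 0.000257), and the leucine transporter gene Slc7a5 at 83.8 and 84.8 CPM before transfer and 21.6, 36.1 and 36.8 CPM in the colon (-1.42 ± 0.28, adjusted p = 0.00378). Shmt2 fell by 1.27 and Psat1 by 0.98 on the log2 scale. The count was 6 without colon library 0 or 2. Psat1 did not pass with the replicate number or the experiment as a block, nor without culture 0, any 1 colon library or wild-type colon library 1.

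Mitosis genes fell in 20 of 25, with a median of -1.47. Aurkb, a mitotic kinase, was at 119 and 61.8 CPM before transfer and 22.02, 34.6 and 25.2 CPM in the colon (-1.73 ± 0.29, adjusted p = 0.00147), Ccnb1, cyclin B1, at 33.7 and 17.3 CPM before transfer and 5.95, 7.57 and 9.17 CPM in the colon (-1.76 ± 0.32, adjusted p = 0.00281), and Top2a, a topoisomerase of dividing cells, at 1176 and 599 CPM before transfer and 324, 390.1 and 305 CPM in the colon (-1.39 ± 0.33, adjusted p = 0.011). Culture 0 was about 2-fold above culture 1 in each, and without culture 0 the falls were 7 of 25 and Top2a did not pass. Mki67, a general proliferation marker, was at 1438 and 635 CPM before transfer and 522, 776 and 545 CPM in the colon and did not pass. DNA replication genes fell in 10 of 28, a count that single libraries moved. It was 0 without culture 0, 21 without culture 1, 2 or 3 when a colon library was left out, 18 without either wild-type culture, 6 without wild-type colon library 1, 6 with the experiment and 4 with the replicate number as a block, 18 with no filter on low counts and 16 in DESeq2. Mcm3, a subunit of the replicative helicase, was at 355 and 102 CPM before transfer and 88.8, 93.7 and 95.5 CPM in the colon (-1.305 ± 0.401, adjusted p = 0.0341), with culture 1 close to the colon libraries. Mcm3 did not pass with the replicate number or the experiment as a block, in the compared groups alone, or without culture 0, any 1 colon library or wild-type colon library 1. Polyamine and nucleotide genes fell in 6 of 24, in 0 without culture 0, 12 without culture 1, 1 or 2 when a colon library was left out, 3 without wild-type colon library 1 and 1 with the replicate number as a block. Ribosome biogenesis genes fell in 3 of 24 (12.5%), no more than the 13.2% of all genes that passed as lower. These falls were 9 without culture 1, 5 with no filter on low counts and 1 without culture 0.

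Genes that restrain the cycle split. Cdkn1a, the gene of p21, was at 113 and 144 CPM before transfer and 19.01, 33.8 and 37.9 CPM in the colon (-2.09 ± 0.33, adjusted p = 0.00105), whereas Gadd45b was at 30.2 and 13.7 CPM before transfer and 95.7, 129 and 147 CPM in the colon (2.495 ± 0.38, adjusted p = 0.000819) and Rbl2, a pocket protein of resting cells, rose by 1.78. The list of cycle inhibitors numbered 6 higher and 4 lower of 23, and 2 were lower whichever colon library was left out and with the replicate number as a block. Of 25 survival and death genes 4 rose (16%), or 8 without either wild-type culture, and 2 fell (8%). Over all genes 13.8% passed as higher and 13.2% as lower. Casp1, the inflammatory caspase gene, was at 3.38 and 6.58 CPM before transfer and 164, 137 and 158 CPM in the colon (4.94 ± 0.398, adjusted p = 1.86e-05), and Casp4 rose by 1.91. Bcl2 was at 477 and 681 CPM before transfer and 181, 245 and 220.4 CPM in the colon (-1.43 ± 0.24, adjusted p = 0.00167), and Mcl1 at 554 and 832 CPM before transfer and 633, 728 and 667 CPM in the colon with groups that overlapped.

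**Figure D4:**
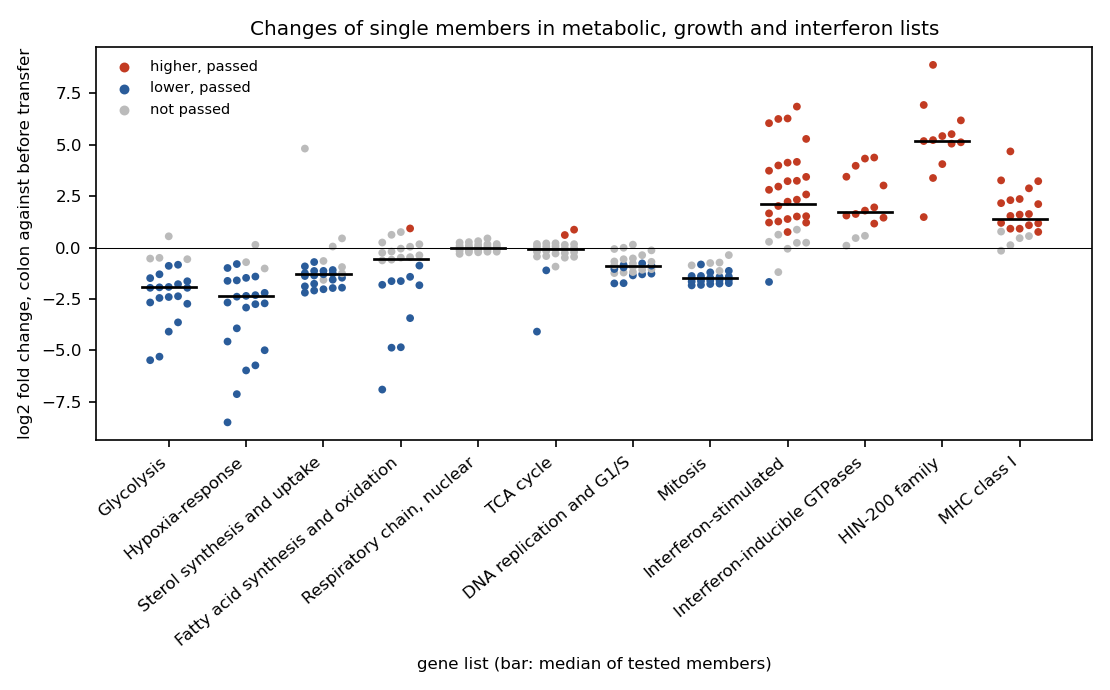
Log2 fold change of every tested member of 12 lists, red for higher and blue for lower members that passed, grey for those that did not, with a bar at each median. The medians run from -2.37 for hypoxia-response genes through -0.03 for nuclear respiratory chain genes to 5.20 for the HIN-200 family.

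Interferon-response genes rose broadly, against cultures that had received anti-IFN-g, whose part was not tested. Of 34 interferon-stimulated genes 26 rose and 1 fell, with a median of 2.13. Irf7, a factor that amplifies interferon production, was at 8.19 and 13.2 CPM before transfer and 81.2, 71.5 and 72.2 CPM in the colon (2.81 ± 0.3, adjusted p = 9.25e-05). Isg15, a ubiquitin-like modifier, was at 1.01 and 1.03 CPM before transfer and 15.02, 10.4 and 15.5 CPM in the colon (3.74 ± 0.37, adjusted p = 5.74e-05) and the antiviral GTPase gene Mx1 at 1.55 and 5.43 CPM before transfer and 39.2, 27.6 and 31.1 CPM in the colon (3.23 ± 0.59, adjusted p = 0.00263). In none of the 3 did a colon library overlap a culture. The exception was Irf8, at 88.3 and 67.6 CPM before transfer and 26.99, 25.1 and 21.2 CPM in the colon (-1.67 ± 0.34, adjusted p = 0.00443). Stat2, at 87.4 and 119 CPM before transfer and 128, 118 and 119 CPM in the colon, did not pass. The falls were 2 without either wild-type culture.

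The interferon-inducible GTPases rose in 11 of 14. Gbp4, a guanylate-binding protein that attacks pathogen vacuoles, was at 24.5 and 31.4 CPM before transfer and 441, 447 and 432 CPM in the colon (3.98 ± 0.25, adjusted p = 5.46e-06). Gbp8 was at 8.35 and 9.48 CPM before transfer and 188, 183 and 186 CPM in the colon (4.38 ± 0.29, adjusted p = 6.43e-06) and Gbp9 at 7.11 and 9.87 CPM before transfer and 168, 175 and 169 CPM in the colon (4.33 ± 0.26, adjusted p = 5.46e-06), with colon libraries within a few CPM of each other. Gbp2 was the exception at 149 and 299 CPM before transfer and 199, 288 and 229 CPM in the colon, a change of 0.09 ± 0.39. All 12 tested members of the HIN-200 family, DNA-binding proteins encoded side by side on chromosome 1, rose, with a median of 5.20. Ifi203 (chr1:173920407-173942672) was at 11.7 and 12.9 CPM before transfer and 528, 432 and 381 CPM in the colon (5.18 ± 0.32, adjusted p = 5.46e-06), Mndal (chr1:173849126-173942491) at 11.4 and 15.5 CPM before transfer and 504, 521 and 485 CPM in the colon (5.23 ± 0.45, adjusted p = 2.6e-05), and Ifi213 (chr1:173566283-173599274) at 0.6602 and 0.214 CPM before transfer and 72.5, 46.3 and 46.5 CPM in the colon (6.94 ± 0.52, adjusted p = 1.15e-05). Aim2, a DNA sensor of the inflammasome, rose least, from 54.9 and 89.03 to 185, 208 and 209.8 CPM (1.48 ± 0.34, adjusted p = 0.00857), and did not pass without culture 0. The annotated spans of Ifi203 and Mndal overlap on the same strand. Members of both families resemble one another, so reads can be split or dropped among them and single levels are uncertain.

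Interferon-activated factors bind elements with a repeated GAAA. A pair of GAAA with any 2 bases between them, on either strand, was present in RefSeq promoters of 9 of 10 GTPase genes (90.0%), 9 of 11 HIN-200 genes (81.8%), 11 of 24 interferon-stimulated genes (45.8%) and 5 of 19 class I genes (26.3%), against 3.99% of the 27025 genes with a promoter. The 9 GTPase genes include Gbp5, which was not tested, and Gbp2, the exception above. Gbp8, Gbp9 and Gbp4, described above, were not among the 9. The windows below follow the same rule, for the 3 largest rises among members that met it in the GTPases and in the HIN-200 family. Capitals mark the GAAA pair, which reads as a TTTC pair where it lies on the other strand.
Gbp7, chr3:142530253-142530322, plus strand: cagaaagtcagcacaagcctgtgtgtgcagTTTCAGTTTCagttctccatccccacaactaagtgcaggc
Tgtp2, chr11:49064243-49064312, minus strand: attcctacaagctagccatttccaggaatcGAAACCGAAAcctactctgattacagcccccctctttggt
Gbp3, chr3:142559975-142560043, plus strand: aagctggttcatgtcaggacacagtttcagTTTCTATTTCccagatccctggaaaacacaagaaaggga
Ifi213, chr1:173599306-173599375, minus strand: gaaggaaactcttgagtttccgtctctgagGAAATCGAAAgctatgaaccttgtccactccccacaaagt
Ifi206, chr1:173491319-173491388, minus strand: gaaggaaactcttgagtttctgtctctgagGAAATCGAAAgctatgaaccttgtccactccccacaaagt
Mndal, chr1:173880188-173880253, minus strand: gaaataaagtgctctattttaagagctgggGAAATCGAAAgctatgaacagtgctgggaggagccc
The Ifi213 and Ifi206 windows were identical at 69 of 70 bases, and the 3 HIN-200 windows carried the same 10 letters in capitals. The letters TTCNNNGAA, a STAT-type element that can overlap the first motif, were present in 6 of 10 GTPase promoters, Gbp5 again among them. They were also present in 2 of 19 of the STAT, SOCS and Pim list (10.5%), those of Socs3 and Cish. The share of all genes with a promoter was 9.55%. TTC and GAA with 4 bases between them were present in 1 of those 19 (5.26%) against 8.01% of all.

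Class I presentation genes rose in 17 of 22 and none fell. B2m, the invariant chain, was at 630.1 and 824 CPM before transfer and 3825, 3385 and 3569.9 CPM in the colon (2.31 ± 0.28, adjusted p = 0.000229) and H2-K1, a heavy chain, at 532 and 886 CPM before transfer and 3786, 3405 and 3737 CPM in the colon (2.36 ± 0.36, adjusted p = 0.000905). Nlrc5, the activator of class I transcription, was at 63.6 and 127 CPM before transfer and 942, 912 and 900.1 CPM in the colon (3.27 ± 0.302, adjusted p = 3.78e-05). The peptide transporter gene Tap1 rose by 1.601 and the immunoproteasome gene Psmb9 by 1.63, which did not pass without culture 0. H2-Q6, at 13.3 and 44.98 CPM before transfer and 741, 717 and 777 CPM in the colon, and other class Ib genes are near copies of one another and uncertain singly. The chaperone genes Pdia3 (697 and 569 CPM before transfer and 714, 685 and 660.2 CPM in the colon) and Calr (867 and 535 CPM before transfer and 719, 631 and 538 CPM in the colon) did not pass. Class II genes numbered 3 higher and 2 lower of 11. H2-Aa was at 16.5 and 2.14 CPM before transfer and 33.4, 79.3 and 68.7 CPM in the colon (2.69 ± 0.74, adjusted p = 0.0204), lowest in colon library 0 where myeloid markers were lowest too, and H2-DMb2 fell (-1.96). The class II rises were 0 without culture 1 or colon library 1, and 1 without colon library 2 and in the compared groups alone. The falls were 1 without culture 1. H2-Aa did not pass without culture 1 or colon library 1.

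Stress genes rose in 7 of 24 heat shock and unfolded-protein genes and fell in 1. Hspa1b was at 2.84 and 8.46 CPM before transfer and 112, 108 and 103 CPM in the colon (4.26 ± 0.48, adjusted p = 0.000128), and its near copy Hspa1a at 2.68 and 7.05 CPM before transfer and 48.1, 65.3 and 50.03 CPM in the colon, so the split between them is uncertain. Ern1, the sensor IRE1, rose by 2.33, whereas its target Xbp1 was at 253 and 266 CPM before transfer and 122, 119.6 and 120.3 CPM in the colon (-1.105 ± 0.17, adjusted p = 0.00098). The rises were 3 and the falls 3 without culture 1, and the rises 4 without culture 0, colon library 1 or colon library 2. The metallothionein genes Mt1 (9.01 and 49.5 CPM before transfer and 1.27, 2.72 and 3.08 CPM in the colon) and Mt2 (1.79 and 41.4 CPM before transfer and 0.462, 0.329 and 0.958 CPM in the colon) fell from cultures that differed widely, and neither passed without culture 1. Lysosome genes numbered 5 each way of 27 (18.5% each, against 13.8% and 13.2% of all genes). There were 3 rises without either culture or colon library 1 or 2, 3 falls without colon library 0 and 8 without wild-type culture 1. Ctsd, cathepsin D, was at 187 and 163 CPM before transfer and 567, 547 and 603 CPM in the colon (1.71 ± 0.23, adjusted p = 0.000368). Ctsl was at 19.1 and 26.7 CPM before transfer and 2.6004, 4.61 and 4.38 CPM in the colon (-2.57 ± 0.37, adjusted p = 0.000589).

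Genes that sense the environment included some of the larger changes. Abcb1a, a drug exporter, was at 0.816 and 1.62 CPM before transfer and 232, 289 and 265 CPM in the colon (7.75 ± 0.39, adjusted p = 1.63e-06). Nr3c1, the glucocorticoid receptor gene, was at 45.8 and 82.2 CPM before transfer and 277, 195 and 199.8 CPM in the colon (1.81 ± 0.29, adjusted p = 0.00109) and its target Fkbp5 rose by 0.88. P2rx7, a receptor of extracellular ATP, was at 112 and 116 CPM before transfer and 631, 658 and 628 CPM in the colon (2.48 ± 0.26, adjusted p = 9.25e-05), and Gpr34 at 1.09 and 5.72 CPM before transfer and 82.5, 62.5 and 86.2 CPM in the colon (4.505 ± 0.65, adjusted p = 0.000633). P2rx4 moved the other way (39.7 and 59.04 CPM before transfer and 14.3, 10.5 and 10.3 CPM in the colon, -2.07). Of 19 clock genes 2 rose and 2 fell (10.5% each, under the 13.8% and 13.2% of all genes). Npas2 was at 29.9 and 36.7 CPM before transfer and 3.93, 0.823 and 0.8898 CPM in the colon (-4.102 ± 0.62, adjusted p = 0.00085). In the clock list 4 fell with the experiment as a block and 5 without culture 0. The clock rises were 5 without either wild-type culture and in DESeq2, and 1 without culture 0, any 1 colon library or wild-type colon library 0 or 1 and with the replicate number as a block. The falls were 4 without either wild-type culture and 6 with no filter on low counts. Of 27 chromatin genes 5 fell (18.5%) and 2 rose (7.4%), against 13.2% and 13.8% of all genes. Among the falls were the histone demethylase gene Kdm5b (-1.59) and the methyltransferase gene Ezh2 (203 and 153 CPM before transfer and 95.002, 99.4 and 93.5 CPM in the colon, -0.89). The falls were 2 whichever colon library was left out and 8 without either wild-type culture. The rises were 0 without culture 1, without any 1 colon library of either genotype, with the replicate number as a block and with no filter on low counts, and 1 without culture 0. Ezh2 did not pass without culture 0 or any 1 colon library, nor Fkbp5 without culture 1.

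Reads of markers of other colon cells were present in every colon library. Epithelial markers rose in 15 of 20 tested, and their sum was between 34.2 and 116.2 CPM before transfer and between 266.7 and 562.0 CPM in the colon, highest in colon library 0. Krt8, a keratin with no count in the cultures, was at 42.4, 20.2 and 11.4 CPM, at least 404-fold higher, and Epcam at 1.36 and 2.35 CPM before transfer and 27.3, 11.7 and 9.38 CPM in the colon (3.12 ± 0.76, adjusted p = 0.0119), which did not pass without culture 0. Myeloid markers rose in 13 of 19, or 7 without culture 1, summing to between 23.2 and 96.2 CPM before and between 188.5 and 522.1 CPM in the colon, lowest in colon library 0. Csf1r was at 1.204 and 0.128 CPM before transfer and 9.48, 41.7 and 29.7 CPM in the colon (5.298 ± 1.0, adjusted p = 0.00313) and the phagocyte gene Cybb at 19.3 and 2.48 CPM before transfer and 12.3, 48.3 and 28.5 CPM in the colon. Stromal markers rose in 7 of 12, or 4 without culture 1, yet their sum overlapped between stages (145.3 and 155.2 CPM against 122.4 to 167.2 CPM), and Pecam1, which T cells also carry, made most of it at 139 and 147 CPM before transfer and 111, 133 and 132 CPM in the colon. B cell markers summed to between 90.7 and 141.2 CPM before and between 40.7 and 88.4 CPM in the colon, with 2 of 9 lower (4 without either wild-type culture, 1 without culture 0) and Ighm the most abundant (67.7 and 127 CPM before transfer and 81.5, 34.99 and 41.2 CPM in the colon). Mast cell and erythroid markers rose in 6 of 7, or 2 with the stricter filter on low counts, but stayed between 30.9 and 44.8 CPM in sum. Before transfer 6 epithelial markers had no count, and in the colon every epithelial and myeloid marker had at least 1. All sums were below those of T cell markers, but sums of different lists do not measure shares of cells. The part of such cells in the rise of interferon, chemokine, class II or epithelial genes was not tested.

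**Figure D5:**
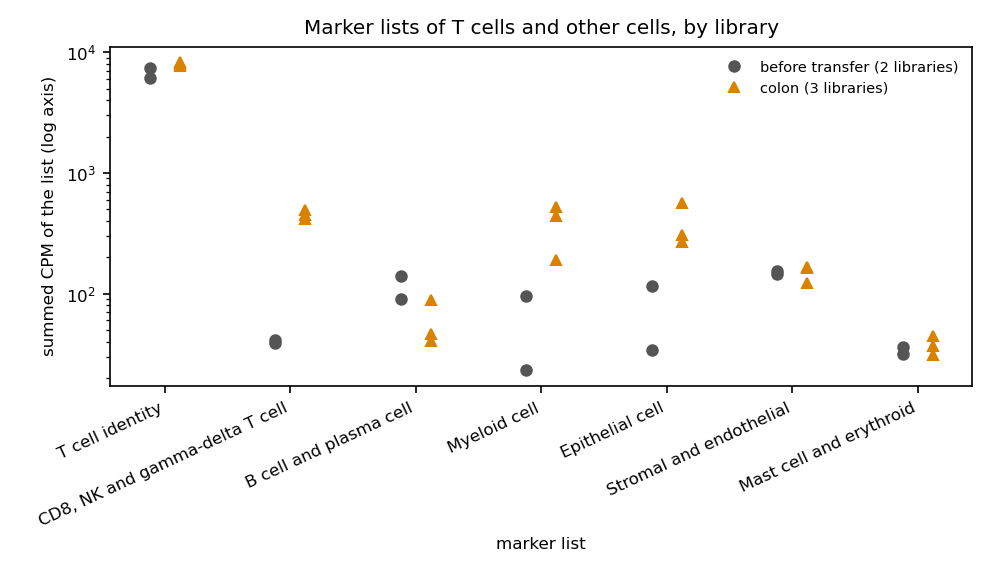
Summed CPM of 7 marker lists on a log axis, circles for the 2 cultures before transfer and triangles for the 3 colon libraries. T cell markers stay between 6107.5 and 8241.7 CPM, while the CD8, NK and gamma-delta, myeloid and epithelial sums are higher in every colon library.

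The change between stages was set against that of wild-type cells, which had their own cultures and were given to the same hosts. In wild type 4682 genes passed (32.9%), and 3128 passed in both genotypes. The test of the difference between these changes called 0 of 14225 genes (0.00%) in edgeR, with a lowest adjusted p of 0.678 and 377 genes at an unadjusted p under 0.05. DESeq2 called 12, edgeR without a filter 13, and edgeR without wild-type library 0 before transfer 621, while the other 15 alternatives that could test it called 0. None of the changes above is therefore shown to be particular to Il6ra-deficient cells. Il12rb2 changed by 2.59 in deficient and -0.19 in wild-type cells (unadjusted p = 0.000662, adjusted p = 0.953 for the difference) and Il1r1 by -0.85 and 1.61 (unadjusted p = 0.00305, adjusted p = 0.953 for the difference). Nkg7 changed by 6.79 and 4.32 (unadjusted p = 0.001, adjusted p = 0.953 for the difference), and Cd8a by 1.54 and -1.03 (unadjusted p = 0.000623, adjusted p = 0.953 for the difference). Igfbp4 changed by -8.13 and -8.48, Ccr7 by -5.19 and -5.49 and Slc16a3 by -4.09 and -4.92. In glycolysis 19 genes fell here and 20 in wild type, in the sterol list 19 and 19, and in the interferon-stimulated list 26 rose here and 27 there. Counts stood further apart in amino acid genes, with 11 falls here and 5 in wild type, and in RNA-decay factors, with 4 rises here and 9 in wild type. The Th17 cytokine list had a median of -0.99 here and 1.04 in wild type. These differences between lists were not tested.

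Libraries of 1 stage also differed among themselves. Over 9988 genes with mean log2 CPM of at least 2, 10.5% differed more than 2-fold between the cultures, against 2.25% and 1.98% between colon library 0 and the other colon libraries and 0.240% between colon libraries 1 and 2, which came from 1 experiment. Culture 0 had more Il17a, Il17f, Ccl20 and cell cycle RNA, and culture 1 more Socs3, Igfbp4, Vegfa and Ndrg1. Spp1, the gene of osteopontin (218 and 18.7 CPM before transfer and 1.56, 2.799 and 4.38 CPM in the colon), and Itga7 (67.03 and 509.9 CPM before transfer and 6.41, 12.1 and 7.597 CPM in the colon) also differed between the cultures (Spp1 did not pass without culture 0), and were named after their values were seen. In the colon, library 0 had lower Fosb, Tnfaip3, Jun and myeloid markers and higher Il10, Foxp3, Ccr6 and epithelial markers than libraries 1 and 2. With 1 culture per experiment, experiment and culture cannot be told apart.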

How the data were processed

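The deposited files hold whole-number read counts per gene for each library, made by the authors with STAR 2.5.3 and HTSeq 0.7.2 on GRCm38/mm10 per the submitters' processing notes. The strand setting and annotation release are not given in the sources used here. RNA was extracted with miRNeasy and libraries made with a stranded mRNA kit, per the labels' protocols. Summary rows of reads without a gene entered neither the scaling nor the tests. The share of reads outside genes was 19.1% to 29.0%. Identifiers were named from GENCODE vM21. Reads that fit several genes are left out by default in HTSeq, which lowers genes with near-identical copies.

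Genes were tested with edgeR 4.0.16 (R 4.3.3): filterByExpr, TMM scaling and the quasi-likelihood test over the 10 libraries of both genotypes, without a block, with Benjamini-Hochberg adjustment over 14225 genes. The test was tested on simulated data. Same-numbered libraries belong to 1 experiment per the labels; deviations from group means correlated at -0.0811 and -0.0813 across the stages of deficient cells, and at 0.43 before transfer and 0.58, 0.237 and 0.183 in the colon between same-numbered libraries of the 2 genotypes. Alternatives were other scaling, filters, DESeq2 1.42.0, blocks by number or experiment, a 2-fold minimum, the compared groups alone and each library left out; the experiment block on the compared groups alone and the wild-type leave-outs were chosen after seeing the data.

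Named genes were the largest and the most abundant changes, members of lists by size of change and genes of the Th17 and IL-6 pathways. Gapdh, Il1rl2, Itga7, Krt8, Ldha, Mki67, Mt2, Pkm, Psmb9, Spp1, Tap1 and Top2a were added after their values were seen, and some genes the rule named are not reported here. Members and lists were chosen with earlier results of these data known, and the promoter searches in HIN-200, class I and hypoxia genes and the second search in GTPases were added after values were seen.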

Additional observations from a re-analysis of the deposited data

Results flagged for a closer look

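Reads that HTSeq assigned to no gene lay outside the comparisons, and their share was higher in every colon library than in either culture. It was 28.9%, 29.0% and 27.8% in colon libraries 0, 1 and 2, against 19.1% and 23.6% before transfer. The reads carry no gene name, and their part in any result was not tested.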

How the results depend on the processing

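Leaving out 1 library at a time gave between 2627 and 4861 changed genes, between 1211 and 2498 higher and between 1172 and 2444 lower, and between 0 and 621 genes that differed between genotypes, the highest without wild-type library 0 before transfer. The test against a minimum of 2-fold gave 1714 changed genes, 938 higher and 776 lower. Genes that differed between genotypes numbered 13 with no filter on low counts and 12 with DESeq2. The cause of these differences was not tested, apart from the 2-fold minimum, which asks for more. No gene that passed both here and under another setting changed direction. With the replicate number as a block 3422 genes passed, 1883 higher and 1539 lower, and with the experiment as the replicate block 4157, 2180 higher and 1977 lower. Polyamine genes fell in 1 and replication genes in 4 with the number as a block. Some genes that did not pass, near no change, took the opposite sign under some settings. Their log2 fold changes in those fits, with the range over fits that left out 1 library, follow. The value of Acadl was -0.0175, -0.0158, -0.0361 in other fits and -0.24 to 0.36 over the leave-outs and that of Adam10 was -0.23 to 0.0628 over the leave-outs. The value of Bhlhe40 was -0.17, -0.0458, -0.11 in other fits and -0.0529 to 0.41 over the leave-outs and that of Calr was -0.46 to 0.22 over the leave-outs. The value of Cd4 was -0.12 to 0.58 over the leave-outs and that of Cd8b1 was -0.81 to 0.50 over the leave-outs. The value of Cish was -0.0399, -0.0255, -0.0022, -0.0237, -0.0354 in other fits and -0.079 to 0.0937 over the leave-outs and that of Eno3 was -0.90 to 0.0168 over the leave-outs. The value of Foxo1 was -0.0291, -0.017, -0.0167 in other fits and -0.0437 to 0.0639 over the leave-outs and that of Gbp2 was -0.34 to 0.68 over the leave-outs. The value of Il21r was -0.23 to 0.47 over the leave-outs and that of Itgb1 was -0.46 to 0.46 over the leave-outs. The value of Mcl1 was -0.32 to 0.29 over the leave-outs and that of Nr4a1 was -0.076, -0.0185 in other fits and -0.20 to 0.37 over the leave-outs. The value of Pdcd1 was 0.0396 in other fits and -0.61 to 0.62 over the leave-outs and that of Pdia3 was -0.0226 to 0.25 over the leave-outs. The value of S1pr1 was -0.36 to 0.76 over the leave-outs and that of Uqcrc2 was -0.0464 to 0.0227 over the leave-outs. The value of mt-Co1 was -0.0399, -0.0255, -0.0022, -0.0231, -0.14, -0.0433 in other fits and -0.13 to 0.15 over the leave-outs. 

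How depth bears on the calls was not tested. In simulated counts with 100 genes changed 2-fold, 11% of these were recovered, a rate that does not carry over to data in which far more genes changed.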
